A study of Mus musculus with 6 samples.

Results

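The 10 genes described here, Fos, Fosb, Jun, Junb, Jund, Egr1, Ier2, Atf3, Dusp1 and Zfp36, are immediate early genes, taken by name from a table of 24736 gene symbols by a rule that uses no measured value. They were followed in RNA sequencing of intestinal crypts, taken along the whole gut, of 3 wild-type (WT) mice and 3 mice labelled Mtg16 KO, all males of 12 weeks, with 1 library per biological replicate. MTG16, encoded by Cbfa2t3, is a transcriptional co-repressor, and the comparison asks how crypt gene expression differs when it is missing. The knockout mice are written Mtg16-/- below; the allele is not limited to crypts by any Cre or promoter that the sources name, and their labels describe a CRISPR-induced knockout while the study's methods describe mice obtained as a gift, a difference that was not resolved. The labels name no drug treatment and no other allele for either group. Values are TPM, a unit of transcript abundance that is scaled to gene length and to the same total in every library. The number of reads behind a value is not kept on this scale, so the depth is unknown.

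Immediate early genes are transcribed within minutes of a stimulus, such as a growth factor, a cytokine or mechanical stress, without the need for new protein synthesis, and their mRNAs are short-lived. The products of the Fos and Jun families pair into AP-1 transcription factors, EGR1 is a zinc finger transcription factor of the same early response, and DUSP1 and ZFP36 limit the response by inactivating MAP kinases and by destabilising mRNAs. These genes are commonly detected in freshly dissociated tissue, and here crypts were released from the tissue for 30 min in cold buffer with 2 mM EDTA.

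The members were short genes. In the RefSeq annotation of GRCm38.p6, their spans ran from 1.52 kb for Ier2 to 13.0 kb for Atf3, with a median of 3.03 kb, against a median of 21.8 kb for the 11957 tested genes with a RefSeq match. A span of at most 5 kb was found for 8 of the 10 members and for 13.8% of these genes. For 4 members, Jun, Junb, Jund and Ier2, the 1 transcript examined in the GENCODE vM21 annotation has 1 exon, and other transcripts were not examined. In RefSeq, Fos lies on chromosome 12 from 85473890 to 85477274 on the plus strand, and Fosb on chromosome 7 from 19302696 to 19310118 on the minus strand. Junb lies on chromosome 8 from 84976909 to 84978748 on the minus strand, and Zfp36 on chromosome 7 from 28376784 to 28379228 on the minus strand. An annotated antisense gene overlaps Jun (Junos), Jund (Gm11175) and Zfp36 (Gm44710). Whether the counting used strand is not given in the sources used here, so reads of these 3 members and of their antisense partners may not have been told apart.

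Promoter windows of 8 members were searched for sites known from early response genes, since cAMP response elements, serum response elements (whose core is the CArG box) and EGR sites are classic inputs of this gene class. Each RefSeq window held 250 bases before the annotated start and 50 after it, both strands were read, and Ier2 and Egr1 were not included. The windows of the 4 searched members with the lowest fold change in Mtg16-/- crypts are printed without their last 20 bases, on the strand of the gene. Capitals mark the cAMP response letters TGACG, the EGR site GCGNGGGCG, the TATA box TATAAA and the CArG box.
Fos promoter, chr12:85473640-85473919, plus strand, GRCm38.p6: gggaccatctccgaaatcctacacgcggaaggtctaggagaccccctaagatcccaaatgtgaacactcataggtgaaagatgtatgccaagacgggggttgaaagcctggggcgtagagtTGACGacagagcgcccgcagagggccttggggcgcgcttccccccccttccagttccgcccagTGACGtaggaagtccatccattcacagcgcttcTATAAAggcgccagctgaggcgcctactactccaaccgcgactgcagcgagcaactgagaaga
Fosb promoter, chr7:19310016-19310295, minus strand, GRCm38.p6: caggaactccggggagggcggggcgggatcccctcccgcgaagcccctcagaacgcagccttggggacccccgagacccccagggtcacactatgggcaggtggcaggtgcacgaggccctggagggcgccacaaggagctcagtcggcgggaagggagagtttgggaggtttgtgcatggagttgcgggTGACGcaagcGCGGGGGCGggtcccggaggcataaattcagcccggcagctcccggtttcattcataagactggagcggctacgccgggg
Junb promoter, chr8:84978719-84978998, minus strand, GRCm38.p6: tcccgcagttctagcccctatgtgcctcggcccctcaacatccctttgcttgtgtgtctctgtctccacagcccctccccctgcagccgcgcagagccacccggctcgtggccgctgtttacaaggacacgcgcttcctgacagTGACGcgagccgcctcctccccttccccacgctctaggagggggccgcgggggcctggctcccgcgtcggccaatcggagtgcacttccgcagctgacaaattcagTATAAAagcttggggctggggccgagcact
Zfp36 promoter, chr7:28379199-28379478, minus strand, GRCm38.p6: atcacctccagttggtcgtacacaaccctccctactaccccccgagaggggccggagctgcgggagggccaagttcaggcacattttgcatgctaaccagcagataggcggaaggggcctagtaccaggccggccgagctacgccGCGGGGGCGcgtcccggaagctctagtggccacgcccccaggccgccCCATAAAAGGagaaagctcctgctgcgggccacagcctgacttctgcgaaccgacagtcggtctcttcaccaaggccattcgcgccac
In these stretches, TGACG was found 66 and 129 bases upstream of the annotated start of Fos, 60 upstream in Fosb and 106 upstream in Junb. The TATA box lay 33 bases upstream in Fos. In Junb it lay at the RefSeq start itself, and the GENCODE annotation places the start of Junb downstream of that, at 84978718. An EGR site lay 50 bases upstream in Fosb and 105 upstream in Zfp36, and Zfp36 had a CArG box 58 bases upstream.

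Over the 8 searched members, TGACG was found in 5, against 20.8% of all 32851 promoter windows of the same length. The full cAMP response element, TGACGTCA, which contains TGACG, was found in 1 member, Dusp1, against 1.79% of all windows. The EGR site was found in 2 members against 5.55%, the TATA box in 2 against 13.6% and the CArG box in 1 against 1.63%. The AP-1 site TGANTCA was found in 0 of 8 windows against 7.81% of all windows. These are matches of letters in a window and carry no measurement of binding. The GC content of the 8 windows ran from 46.7% in Jund to 68.3% in Fosb, against a median of 52.7% for all windows. The window of Jund ends at 70697788, and the GENCODE annotation places the start of Jund downstream of the whole window, at 70698949.

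The 3' untranslated regions were searched for TATTTAT, the core of the AU-rich element that ZFP36 binds in short-lived mRNAs. In the last 500 bases of the longest annotated region, the heptamer was present in 6 of the 9 members whose region was long enough, against 14.9% of 8524 tested genes. It occurred 3 times in Zfp36 and 2 times each in Fos and Dusp1, and 2 or more copies were found in 2.24% of the tested genes. Jun, Jund and Atf3 had 1 copy each, and Fosb, Egr1 and Ier2 had 0. The region of Junb, with 485 bases, was too short for the comparison.

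Cbfa2t3 did not separate the genotypes in these libraries. It had a TPM of 3.67, 6.69 and 4.52 in WT replicates 1 to 3 and of 4.62, 6.43 and 3.23 in Mtg16-/- replicates 1 to 3, with a log2 fold change of -0.06 (SE 0.27, limma adjusted p = 0.937). This gene therefore gave no check of the genotypes, and the labels were taken as given. Libraries held 11929 to 12285 genes at 1 TPM or more, and the 10 most abundant genes took 12.9% to 17.2% of the total. All 8 genes for intestinal epithelium, which mark villus as well as crypt cells, were present in every library, with a summed TPM of 9552 to 10456 in WT and 9223 to 10419 in Mtg16-/- crypts. The 6 crypt stem cell markers and the 7 Paneth cell markers, all reached a mean of 1 TPM, and so did the 10 markers of enterocytes, a cell type that matures on the villus. All 4 markers of enteric neurons and glia stayed under 1 TPM in every library. Of the 4 endothelial markers, Cdh5, Kdr and Plvap stayed under 1 TPM, and Pecam1 had 0.7 to 2.41 TPM.

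In WT crypts the members spanned a wide range of levels. Zfp36 had the highest mean, with 126.8 TPM, and was followed by Jund with 99.6, Junb with 75.8, Ier2 with 72.2, Fos with 48.0 and Jun with 33.6. Atf3 with 7.59, Egr1 with 5.28, Dusp1 with 4.43 and Fosb with 2.08 TPM formed the lower part of the order. The ranges of the 3 WT libraries overlapped between all neighbours in this order but Jun and Atf3. The gap between the 6 abundant and the 4 less abundant members was therefore the only step at which the WT ranges were apart. Compared within each library, Fos exceeded Jun, Atf3 exceeded Egr1 and Dusp1 exceeded Fosb in every WT library.

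**Figure D1:**
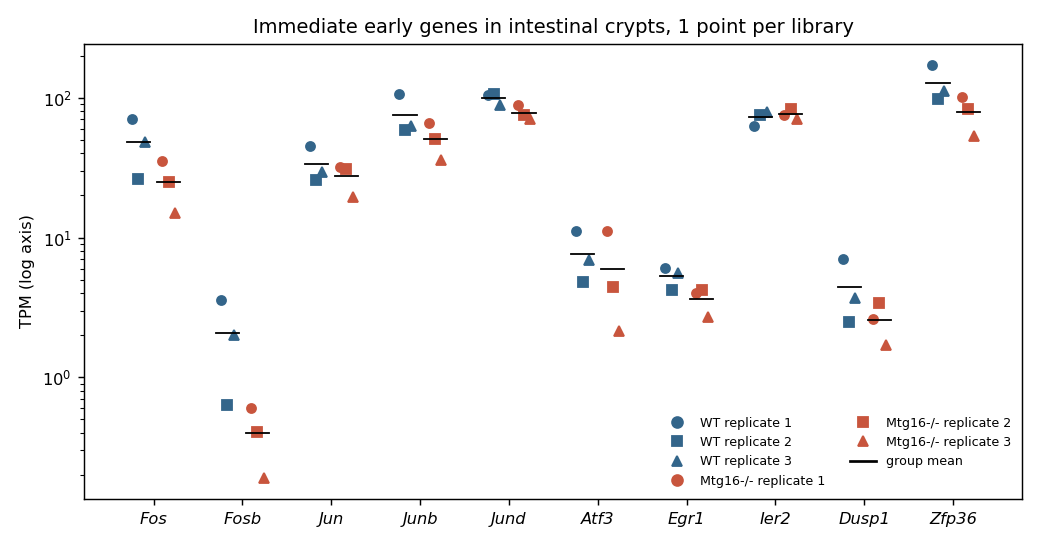
TPM of the 10 immediate early genes on a log axis, with 1 point per library (blue for WT, red for Mtg16-/-, 1 marker shape per replicate number) and a black line at each group mean. WT replicate 1 is the highest of all 6 libraries in 7 genes and Mtg16-/- replicate 3 the lowest in 9, and the groups do not overlap in Fosb and Jund.

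Fos, whose protein is the inducible partner in AP-1, had a TPM of 69.9, 26.3 and 47.9 in WT replicates 1 to 3 and of 35.2, 24.9 and 15.1 in Mtg16-/- replicates 1 to 3. WT replicate 2 lay below Mtg16-/- replicate 1, so the groups overlapped. The mean was 48.0 ± 21.8 in WT and 25.1 ± 10.1 in Mtg16-/- crypts (SD, n = 3 each). On the log2(TPM + 1) scale, the fold change of Fos was -0.88 (SE 0.39, 95% interval -1.78 to 0.01, limma adjusted p = 0.347). Without WT replicate 1 it was -0.56.

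Fosb, a second Fos family member, was the least abundant of the 10 genes, with 3.6, 0.63 and 2.02 TPM in WT and 0.6, 0.41 and 0.19 TPM in Mtg16-/- crypts. The lowest WT library and the highest Mtg16-/- library lay at 0.63 against 0.6 TPM, so that the groups did not overlap by a narrow margin. Its log2 fold change of -1.03 was the lowest of the members (SE 0.38, 95% interval -1.91 to -0.14, limma adjusted p = 0.306). An exact two-sided permutation test gave p = 0.1, the smallest value that 3 against 3 libraries allow. With a pseudocount of 0.1 in place of 1 the log2 fold change of Fosb was -1.93, and without WT replicate 1 it was -0.67. All 3 Mtg16-/- values of Fosb lie under 1 TPM, below the pseudocount of 1.

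The Jun family, which pairs with itself or with Fos proteins, was less far from 0. Jun (chromosome 4, 95049036 to 95052222, minus strand) had 45.4, 25.9 and 29.6 TPM in WT and 32.1, 31.1 and 19.4 TPM in Mtg16-/- crypts, and its WT libraries 2 and 3 lay below 2 of the Mtg16-/- libraries. For Jun the fold change on this scale was -0.27 (SE 0.26, 95% interval -0.87 to 0.32, limma adjusted p = 0.624), and without WT replicate 1 it was -0.04. Junb had 105.9, 58.7 and 62.7 TPM in WT and 66.2, 50.7 and 35.8 TPM in Mtg16-/- crypts, where Mtg16-/- replicate 1 exceeded 2 WT libraries. That of Junb was -0.56 on the log2 scale (SE 0.28, 95% interval -1.20 to 0.09, limma adjusted p = 0.394), and without WT replicate 1 it was -0.29.

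Jund (chromosome 8, 70697739 to 70700616, plus strand) encodes the family member that is known for steady expression in unstimulated cells. It had 103.9, 106.1 and 88.8 TPM in WT and 88.1, 74.7 and 70.5 TPM in Mtg16-/- crypts. All 3 Mtg16-/- libraries lay below all 3 WT libraries, again with a narrow gap. The log2 fold change of Jund was -0.35 (SE 0.14, 95% interval -0.67 to -0.04, limma adjusted p = 0.311, exact permutation p = 0.1), and it differed little from this without WT replicate 1, at -0.32.

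Summed over Fos and Fosb, the libraries held 73.5, 26.9 and 49.9 TPM in WT and 35.8, 25.3 and 15.3 TPM in Mtg16-/- crypts. The sum over the 3 Jun genes was 255.2, 190.7 and 181.1 TPM in WT and 186.4, 156.5 and 125.6 TPM in Mtg16-/- crypts. Fos and Fosb transcripts thus stood at 28.8%, 14.1% and 27.6% of the Jun sum in WT. In Mtg16-/- crypts they stood at 19.2%, 16.2% and 12.1%, with overlap between the groups. Fosl2, a Fos family gene outside the members, had 81.5, 50.1 and 57.7 TPM in WT and 72.6, 62.1 and 41.2 TPM in Mtg16-/- crypts. It was left out of the sum, so these shares do not cover the Fos family. The Jun sum exceeded the sum of Fos and Fosb in every library.

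Atf3 (chromosome 1, 191170296 to 191183333, minus strand), a stress-induced factor of the ATF/CREB family that can pair with Jun proteins, had 11.1, 4.79 and 6.9 TPM in WT and 11.2, 4.46 and 2.13 TPM in Mtg16-/- crypts. Its highest value of the 6 was in an Mtg16-/- library. The log2 fold change of Atf3 was -0.47 (SE 0.48, 95% interval -1.58 to 0.64, limma adjusted p = 0.654), and it ran from -0.99 to -0.0094 with 1 library left out at a time. The value nearest to 0 was that without Mtg16-/- replicate 3.

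Egr1, a zinc finger factor induced through the ERK pathway, had 6.04, 4.21 and 5.58 TPM in WT and 3.98, 4.21 and 2.7 TPM in Mtg16-/- crypts. The groups met at 4.21 TPM, a value listed in replicate 2 of both. Egr1 had a log2 fold change of -0.44 (SE 0.21, 95% interval -0.93 to 0.04, limma adjusted p = 0.369). Ier2 (chromosome 8, 84661331 to 84662852, minus strand), a nuclear protein of the early growth response, was the only member with a positive value. It had 63.1, 75.0 and 78.4 TPM in WT and 75.8, 83.6 and 70.5 TPM in Mtg16-/- crypts, with a log2 fold change of 0.09 (SE 0.13, 95% interval -0.22 to 0.39, limma adjusted p = 0.773). WT replicate 1, the highest library for most members, was the lowest for Ier2, and without it the fold change was -0.0055.

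Dusp1 and Zfp36 act as brakes on the response. Dusp1 (chromosome 17, 26505591 to 26508472, minus strand), a nuclear phosphatase of p38, JNK and ERK, had 7.07, 2.5 and 3.72 TPM in WT and 2.62, 3.43 and 1.69 TPM in Mtg16-/- crypts, and WT replicate 2 lay below 2 of the Mtg16-/- libraries. Dusp1 had a log2 fold change of -0.54 (SE 0.33, 95% interval -1.31 to 0.23, limma adjusted p = 0.464), and without WT replicate 1 it was -0.21. Zfp36, also called tristetraprolin, had 172.2, 97.4 and 110.9 TPM in WT and 100.4, 83.2 and 53.1 TPM in Mtg16-/- crypts, with WT replicate 2 just below Mtg16-/- replicate 1. The log2 fold change of Zfp36 was -0.68 (SE 0.28, 95% interval -1.33 to -0.04, limma adjusted p = 0.322), and without WT replicate 1 it was -0.44.

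**Figure D2:**
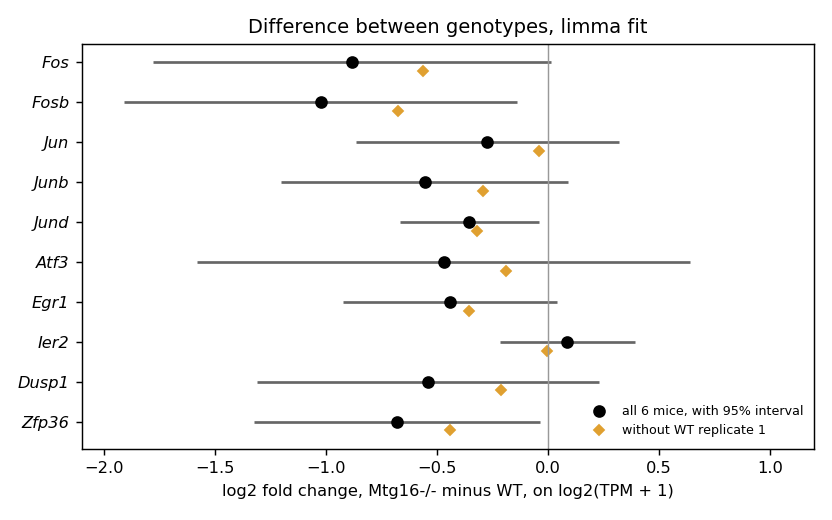
Log2 fold change of each immediate early gene, Mtg16-/- minus WT, on the log2(TPM + 1) scale. Black points show the fit on all 6 libraries with its 95% interval, and yellow diamonds the value without WT replicate 1. The intervals of Fosb, Jund and Zfp36 end below 0. Without WT replicate 1, the highest library in 7 of the genes, most values lie nearer to 0. Without WT replicate 2, not shown, the median of the genes was -0.72, against -0.51 with all 6 libraries.

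With limma, fitted without covariates on the 12268 genes whose mean reached 1 TPM, 0 of the 10 members were called at an adjusted p under 0.1, and their adjusted p ran from 0.306 to 0.773. Over all tested genes, 4 were called, which is 0.0326%. At an unadjusted p under 0.05, 3 members (Fosb, Jund and Zfp36) were lower and 0 were higher in Mtg16-/- crypts, against 8.05% of all tested genes lower and 6.53% higher. The groups did not overlap in 2 members that were lower (Fosb and Jund) and in 0 that were higher, against 11.1% and 9.94% of all tested genes. The fold change was below 0 in 9 members and above 0 in 1, and its median was -0.51, against -0.03 over all tested genes. With 1 library left out, the median of the members was lowest without WT replicate 2, at -0.72. Without WT replicate 1 it was -0.31, without Mtg16-/- replicate 3 it was -0.31, and without both it was -0.12. This pair was chosen after the values were seen, as the highest WT and the lowest Mtg16-/- library of most members. A median nearer to 0 without the pair was therefore built in. With both left out, 0 members were called, the fold change of Jun was 0.18 and that of Atf3 was 0.27. The mRNA was from whole crypt preparations, so fewer cells expressing a gene and less of its RNA per cell cannot be told apart.

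Most members varied among mice of the same genotype more than other genes did. The within-group SD of log2(TPM + 1) was 0.79 for Atf3, 0.64 for Fos, 0.55 for Fosb and 0.50 for Dusp1, against a median of 0.21 over all tested genes. These 4 genes varied more than 98.1%, 96.1%, 94.0% and 91.8% of the tested genes. Junb followed with 89.3%, Zfp36 with 89.2%, Jun with 86.3% and Egr1 with 62.3%. Jund and Ier2 varied little between mice, and their SDs exceeded those of 27.5% and 24.4% of the tested genes.

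The members also shared an order of the libraries. WT replicate 1 had the highest value of all 6 libraries in 7 members, and Mtg16-/- replicate 3 had the lowest in 9. Within the WT group, replicate 2 was the lowest in 8 members. Within the Mtg16-/- group, replicate 3 was the lowest in all 10. The summed TPM of the members was 588, 402 and 436 in WT and 416, 361 and 271 in Mtg16-/- crypts, and WT replicate 2 lay below Mtg16-/- replicate 1. Ier2 departed from this order, with its lowest value in WT replicate 1, and Jund and Atf3 had their highest values in WT replicate 2 and Mtg16-/- replicate 1.

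**Figure D3:**
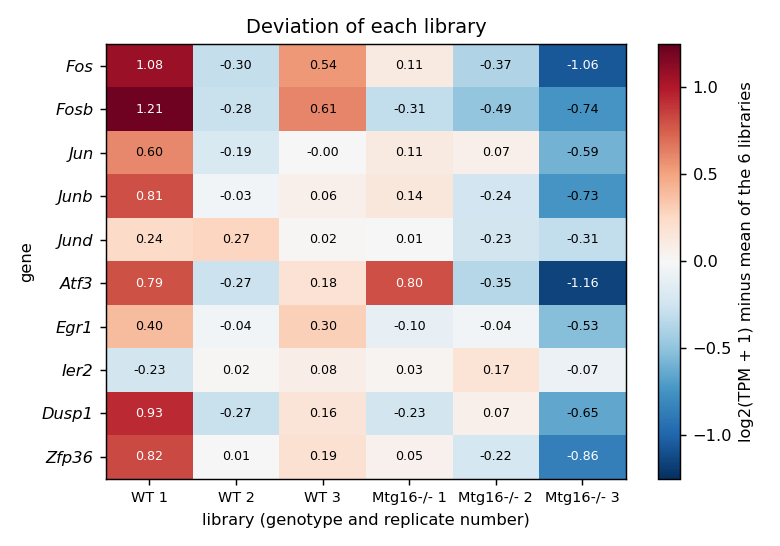
Deviation of each library (columns) from the mean of the 6 libraries in log2(TPM + 1), for each immediate early gene (rows), with red above and blue below the mean and the value printed in each cell. WT replicate 1 is above the mean in 9 genes and Mtg16-/- replicate 3 below it in 10, and Ier2 shows the smallest range.

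The other genes of the pathway were read in 4 lists of 80 genes, of which 67 reached a mean of 1 TPM and were tested. With limma at an adjusted p under 0.1, 0 of the 67 were called higher and 0 lower, and their adjusted p ran from 0.224 to 0.998. At an unadjusted p under 0.05, 4 of the 67 were higher and 7 lower, against 6.53% of all tested genes higher and 8.05% lower. The median fold change of the 67 genes was -0.07, and 41 lay below 0 and 26 above. Beyond the 3 most abundant genes of each list, genes at an unadjusted p under 0.05, genes too low to test and Srf were named after their values were seen.

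Among the partners of AP-1, 8 of 11 genes were tested, with 6 below and 2 above 0 and a median of -0.21. Fosl2, a Fos family member, was the most abundant, with 81.5, 50.1 and 57.7 TPM in WT and 72.6, 62.1 and 41.2 TPM in Mtg16-/- crypts, and a log2 fold change of -0.11 (SE 0.25). Batf2, a basic leucine zipper factor, was the only gene of the list at an unadjusted p under 0.05, with 36.8, 33.9 and 30.9 TPM in WT and 28.8, 22.2 and 15.9 TPM in Mtg16-/- crypts. The groups of Batf2 did not overlap, and its log2 fold change was -0.62 (SE 0.21, limma adjusted p = 0.282). Mafg, a small Maf protein, had a log2 fold change of -0.40 (SE 0.18). Fosl1, the remaining Fos family gene, had a mean of 0.13 TPM and was not tested.

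Of 32 other early genes, 24 were tested, with 15 below and 9 above 0 and a median of -0.10. Nfkbia, which encodes the inhibitor of NF-kB, had 153.7, 121.6 and 93.9 TPM in WT and 86.1, 91.0 and 67.7 TPM in Mtg16-/- crypts, without overlap, and a log2 fold change of -0.57 (SE 0.20, limma adjusted p = 0.291). Mcl1, an anti-apoptotic BCL2 family gene, had a log2 fold change of -0.08 (SE 0.15), and Klf4, a Krüppel-like factor of differentiating epithelium, one of -0.47 (SE 0.31), both with overlap. Tnfaip3, an inhibitor of NF-kB signalling, stood at -0.92 (SE 0.32, limma adjusted p = 0.291) without overlap, and Sgk1, a serum-induced kinase, at -0.75 (SE 0.31, limma adjusted p = 0.327) with overlap. Myc, a proto-oncogene, was higher. It had 32.6, 44.8 and 57.2 TPM in WT and 73.9, 105.5 and 87.2 TPM in Mtg16-/- crypts, without overlap, and a log2 fold change of 0.99 (SE 0.22, limma adjusted p = 0.224). Myc is a Wnt target in crypts as well as an early gene. Egr2, Egr3, Nr4a1, Nr4a3, Arc and Npas4, classic early genes of other tissues, had means under 1 TPM and were not tested.

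Of 14 feedback inhibitors, 12 were tested, with 7 above and 5 below 0 and a median of 0.04. Zfp36l2, a relative of Zfp36 that also binds AU-rich elements, had 89.0, 108.5 and 113.4 TPM in WT and 113.6, 167.3 and 158.5 TPM in Mtg16-/- crypts. Its groups did not overlap, with 113.4 against 113.6 TPM at the margin, and its log2 fold change was 0.48 (SE 0.18, limma adjusted p = 0.304), opposite in sign to that of Zfp36. Zfp36l1, another relative, had a log2 fold change of 0.20 (SE 0.14), and Spred2, an inhibitor of the RAS pathway, one of -0.07 (SE 0.13). Spry1, another RAS pathway inhibitor, stood at 0.50 (SE 0.16, limma adjusted p = 0.279) without overlap. Dusp5, a nuclear ERK phosphatase, stood at -0.69 (SE 0.27, limma adjusted p = 0.312) with overlap.

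All 23 genes for upstream kinases and transcription factors were tested, with 15 below and 8 above 0 and a median of -0.04. Mapk3, which encodes ERK1, was the most abundant, with 337.4, 283.1 and 289.9 TPM in WT and 324.5, 271.7 and 292.1 TPM in Mtg16-/- crypts, and a log2 fold change of -0.03 (SE 0.14). Rps6ka1, a kinase activated by ERK, had a log2 fold change of -0.19 (SE 0.11). Both genes for the MEK kinases were lower at an unadjusted p under 0.05. Map2k2 had 149.6, 123.6 and 130.4 TPM in WT and 114.4, 94.8 and 100.1 TPM in Mtg16-/- crypts, with a log2 fold change of -0.38 (SE 0.13, limma adjusted p = 0.287), and Map2k1 had a log2 fold change of -0.38 (SE 0.16, limma adjusted p = 0.324). Mapk9, which encodes a JNK kinase, stood at 0.33 (SE 0.14, limma adjusted p = 0.339). Srf, whose protein binds the CArG box, had a log2 fold change of -0.03 (SE 0.14), with 21.2, 25.7 and 21.5 TPM in WT and 25.3, 21.7 and 19.9 TPM in Mtg16-/- crypts.

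**Figure D4:**
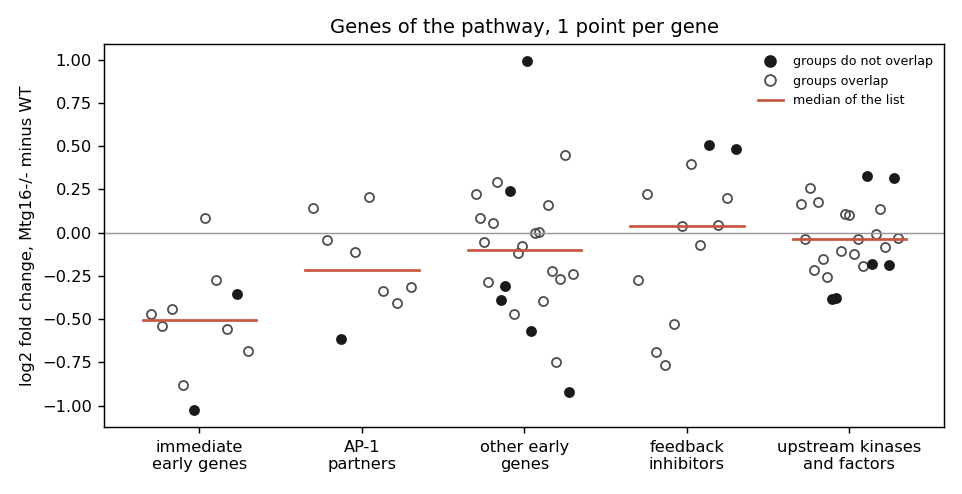
Log2 fold change, Mtg16-/- minus WT, of the 10 immediate early genes and of the tested genes of 4 related lists, with 1 point per gene, filled where the groups do not overlap, and a red line at the median of each list. The medians are -0.51 for the immediate early genes, -0.21 for the AP-1 partners, -0.10 for the other early genes, 0.04 for the feedback inhibitors and -0.04 for the upstream kinases and factors.

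Summed over each list, markers of T cells, enterocytes and goblet cells were highest and lowest in the same libraries as the members. Single markers departed from this. Of the 7 goblet cell markers, only Muc2, Clca1 and Fcgbp were highest in WT replicate 1 and lowest in Mtg16-/- replicate 3. Zg16 and Agr2 were lowest in Mtg16-/- replicate 2, Tff3 in WT replicate 3 and Spink4 in WT replicate 1. The enterocyte markers Fabp1, Apoa4 and Alpi were lowest in Mtg16-/- replicate 2. The 7 T cell markers that were found and tested, of 8 listed, were above 0 TPM in every library and had a summed TPM of 527, 152 and 302 in WT and of 239, 189 and 79.9 in Mtg16-/- crypts, with WT replicate 1 at the top and Mtg16-/- replicate 3 at the bottom. Fold changes were below 0 for 7 of 7 T cell markers, with a median of -0.82, and 0 were called. The 10 enterocyte markers had a summed TPM of 35702, 12221 and 15126 in WT and of 12475, 6882 and 6235 in Mtg16-/- crypts, with fold changes below 0 for 10 of 10, a median of -1.15 and 0 called. The 7 goblet cell markers had a summed TPM of 11804, 10009 and 7264 in WT and of 9087, 6575 and 6454 in Mtg16-/- crypts, with fold changes below 0 for 5 of 7, a median of -0.43 and 0 called. The 4 tested tuft cell markers and the 4 tested myeloid markers also all had fold changes below 0, with medians of -0.50 and -0.21 and 0 called. Tuft cell markers, in sum, were highest in WT replicate 3 and lowest in Mtg16-/- replicate 1. The part that any of these cell types has in the levels of the immediate early genes was not tested.

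Markers of stem cells, Paneth cells and enteroendocrine cells lay on the opposite side. Over all tested genes, 6.53% were higher at an unadjusted p under 0.05. For the 6 stem cell markers, the summed TPM was 847 to 1462 in WT and 1586 to 2100 in Mtg16-/- crypts, and 6 of 6 fold changes were above 0, with a median of 0.65, 0 called and 4 at an unadjusted p under 0.05. The 7 Paneth cell markers had a summed TPM of 9024 to 19658 in WT and 24076 to 29548 in Mtg16-/- crypts, with 7 of 7 fold changes above 0, a median of 0.96, 0 called and 5 at an unadjusted p under 0.05. The 8 enteroendocrine markers had a summed TPM of 322 to 395 in WT and 514 to 577 in Mtg16-/- crypts, with 8 of 8 fold changes above 0, a median of 0.56, 0 called and 7 at an unadjusted p under 0.05. Their part in the levels of the immediate early genes was not tested. The 8 genes for intestinal epithelium as a whole had a median fold change of 0.00, with 4 above and 4 below 0. Their fold changes ran from -0.70 for Vil1 to 0.45 for Cdx2. Fibroblast markers were low, and 2 of the 6 listed were tested. The summed TPM of all 6 was 11.2 to 14.1 in WT and 12.2 to 18.5 in Mtg16-/- crypts.

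Heat shock genes, which encode chaperones induced by stress, followed a different order of the libraries. Of 12 genes, 11 were tested, 11 of 11 had a fold change below 0, with a median of -0.41, and 0 were called. At an unadjusted p under 0.05, 5 of the 11 were lower, against 8.05% of all tested genes. The lowest adjusted p among them was 0.104. The summed TPM of all 12 genes was 4891, 5482 and 6789 in WT and 3834, 4383 and 4705 in Mtg16-/- crypts. The groups of this sum did not overlap, WT replicate 3 was the highest and Mtg16-/- replicate 1 the lowest. The most abundant gene, Hspa8, which encodes a constitutive chaperone, had 2117, 2144 and 2926 TPM in WT and 1599, 1805 and 1971 TPM in Mtg16-/- crypts, with a log2 fold change of -0.41 (SE 0.20, limma adjusted p = 0.386). Hsp90ab1 and Hspd1 had log2 fold changes of -0.20 (SE 0.18) and -0.32 (SE 0.18), both with overlap. The 5 genes at an unadjusted p under 0.05, named after their values were seen, had groups that did not overlap. Their log2 fold changes were -2.08 for Hspa1b (SE 0.29, limma adjusted p = 0.104), -1.88 for Hsph1 (SE 0.28, limma adjusted p = 0.104), -1.07 for Hsp90aa1 (SE 0.17, limma adjusted p = 0.121) and -0.65 for Dnaja1 (SE 0.17, limma adjusted p = 0.255). Hspa1a had 1.8, 1.57 and 4.18 TPM in WT, was listed at 0 in Mtg16-/- replicates 1 and 2 and had 0.61 TPM in replicate 3. Reads of the near-identical Hspa1a and Hspa1b may have been split between them. The immediate early genes had their highest mean deviation in WT replicate 1, at 0.67, and the heat shock genes in WT replicate 3, at 0.70.

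**Figure D5:**
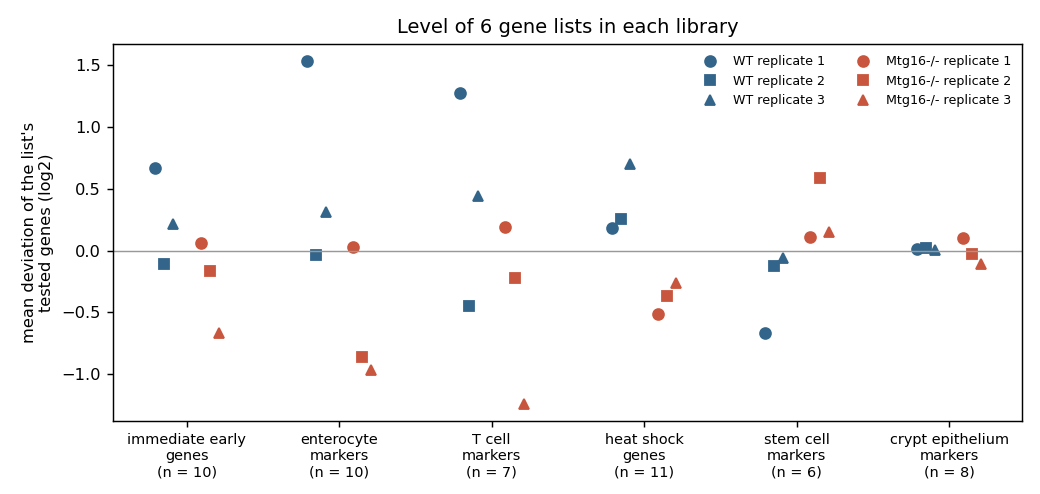
Mean deviation from the 6-library mean in log2(TPM + 1), averaged over the tested genes of each list, with 1 point per library, blue for WT and red for Mtg16-/-. The immediate early genes, the enterocyte markers and the T cell markers are highest in WT replicate 1 and lowest in Mtg16-/- replicate 3, the stem cell markers are lowest in WT replicate 1, the heat shock genes are highest in WT replicate 3, and the genes of intestinal epithelium stay within -0.11 and 0.10.

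The genes whose pattern was most like the mean deviation of the 10 members were sought among the 10055 other tested genes whose mean reached 5 TPM, by Pearson's r over the 6 libraries. The 8 with the highest r were Slc35d1, Emsy, Tbck, Kif21b, Slc25a22, Ifit1, Ptpn3 and B4galt1, with r from 0.999 to 0.994. With so many candidates and 6 libraries, values of this size are a description only. Slc35d1, a nucleotide sugar transporter, had 30.3, 19.7 and 24.1 TPM in WT and 21.5, 19.4 and 14.3 TPM in Mtg16-/- crypts. Slc25a22, a mitochondrial glutamate carrier, had 102.7, 49.2 and 61.1 TPM in WT and 56.0, 46.1 and 26.1 TPM in Mtg16-/- crypts. Ifit1, an interferon-induced gene, had 16.2, 4.88 and 7.65 TPM in WT and 7.07, 4.82 and 1.63 TPM in Mtg16-/- crypts. In all 8 genes, as in most of the members, the groups overlapped, and their log2 fold changes ran from -0.94 for Ifit1 to -0.18 for Ptpn3.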

How the data were processed

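Crypt RNA of 3 WT and 3 Mtg16-/- mice was sequenced from libraries depleted of ribosomal RNA. The authors deposited TPM per gene symbol, rounded to 2 decimals, as quantified with RSEM. The submitters' processing notes name cutadapt 1.9.1, STAR 2.5.2a, RSEM 1.3.0, DESeq2 1.12.3 and mm10, without their roles. TPM keep no counts, so the authors' DESeq2 test could not be repeated and depth is unknown.

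Groups came from the labels. Values were taken as log2(TPM + 1), which understates changes of genes with low TPM. Genes averaging 1 TPM or more over the 6 libraries (12268) were fitted with limma 3.58.1 in R 4.3.3 (eBayes with an intensity trend, no covariates), with Benjamini-Hochberg adjustment over all of them and calls at an adjusted p under 0.1. For single values an exact permutation test (two-sided) was added, and 0.1 is the smallest p it can give here. The calculation was tested on simulated data. Nothing states that the replicates of a group were handled apart beyond being separate mice.

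Promoter windows and positions came from RefSeq GRCm38.p6, and the exon counts, antisense overlaps and untranslated regions from GENCODE vM21. Older symbols were matched through reference tables. Of each pathway list and of the heat shock genes, the 3 most abundant genes and any called gene were named. All members, Cbfa2t3 and the 8 genes most like the members were named as well. Genes at an unadjusted p under 0.05, genes too low to test, Srf and single cell type markers were named after their values were seen. The members and lists were chosen with earlier results of these data known. Alternatives were another pseudocount, filter, scaling, moderation or threshold, array weights, the replicate block and each library left out.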

Additional observations from a re-analysis of the deposited data

How the results depend on the processing

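At a mean TPM of at least 5, only 7 of the 10 immediate early genes were in the fit, and in the other settings all 10 were. These genes had 0 calls in the analysis as reported and in every alternative but the replicate block, where 3 were called. Their median fold change stayed below 0 throughout, from -0.72 to -0.31 with 1 library left out. Of single members, Ier2 ran from -0.0055 to 0.15 with 1 library left out, and with WT replicate 1 and Mtg16-/- replicate 3 left out together, chosen after seeing the data, Jun was 0.18 and Atf3 0.27. The other fold changes of single members kept their sign.

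The number of genes called among all tested genes was 4 as reported. It was 0 without a filter, 15 at a mean TPM of at least 5, 1 with median-ratio rescaling, 0 with quantile normalization, 0 without an intensity trend, 20 with robust eBayes, 855 with array weights, 0 at an adjusted p under 0.05, 0 to 20 with 1 library left out and 19 with both libraries left out. The genes at an unadjusted p under 0.05 numbered 1789. Companion genes called were 0 as reported and 4 with array weights. The cause was not tested. The median fold change of all tested genes lay between -0.06 and 0.02 in all settings.

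The replicate numbers were not taken as pairing the libraries, since no source ties them to a shared litter or day. Libraries with the same number deviated from their group means with correlations of 0.43, 0.08 and 0.24, 1 of them under the limit of 0.1, and 5 of 6 libraries correlated best with their own number. With the replicate number as a block, 1201 of all tested genes, 9 companion genes and 3 members were called, at an adjusted p of 0.0897 for Fos, 0.0664 for Junb and 0.0551 for Zfp36. The depth of the libraries is unknown, so its part in the spread of low genes such as Fosb could not be measured.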
